A study of Mus musculus with 12 samples.

Results

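The Slc25 genes encode the mitochondrial carriers, and they were described here in single cells of mouse small intestinal epithelium. Members were the rows of the gene table whose symbol starts with Slc25a and which had a value above 0 in at least 50 cells. Of 20090 genes in the table, 45 had such a symbol and 43 met the limit. Slc25a21 (117 cells) and Slc25a18 (144 cells) lay just inside it, and Slc25a31 (16 cells) and Slc25a2 (15 cells) lay outside it.

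A mitochondrial carrier is a small protein of the inner mitochondrial membrane that moves 1 metabolite in exchange for another, or together with a proton. Between them the carriers let ATP out and ADP and phosphate in, and pass citrate, malate, amino acids, acylcarnitines, iron, glutathione, nucleotides and cofactors between the cytosol and the matrix. A few members sit elsewhere, such as Slc25a17 in the peroxisome and Slc25a46 in the outer mitochondrial membrane. In the small intestine, stem and transit-amplifying cells divide in the crypt and their offspring move up the villus as absorptive enterocytes, which burn glutamine and handle dietary lipid, or as secretory cells.

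The cells came from the 8 samples of the diet group of adult mice of the Lgr5DTR-GFP strain, in which the stem cell gene Lgr5 carries a reporter with a toxin receptor. They were sorted as CD45-, EpCAM+ epithelial cells after the intestine had been divided into 30 pieces, and libraries were of the droplet type that reads the 3′ end of transcripts. The labels name no diet for any sample. The 4 other samples of the series (2 of total epithelium and 2 of progenitors) were not analysed here. The table pooled the 8 samples, and the 8 numbers that end the cell barcodes did not match the numbers of the sample titles, so the table is 1 sample and no p-value is given. The 8 barcode sets are described by their median and range, and nothing in the sources used here ties a set to an animal.

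Of 27881 cells in the deposited table, with summed values between 2764 and 9739 per cell (median 5503), 27825 were analysed, and sets held 2280 to 5320 cells with medians of 1695 to 2576 detected genes. Values were whole numbers that did not behave as molecule counts, so the depth behind them is unknown and no counting interval is given. A barcode was shared between sets by 157 cells. Clusters were made without any Slc25 gene and named from marker genes with the suffix -like. Progenitor-like cells (crypt stem and dividing cells) numbered 8267, enterocyte-like cells 6962, goblet-like cells 1084, tuft-like cells 324 and enteroendocrine-like cells 268. A further 10906 cells lay in 6 unnamed clusters and 14 were T cell-like, and no Paneth-like cluster was named. All 13 enterocyte markers were higher in enterocyte-like than in progenitor-like cells, and all 10 stem and all 11 transit-amplifying markers were lower. The goblet-like class was less clear. Its summed enterocyte markers were 37856 ppm against 47477 ppm in enterocyte-like cells, its 10 leading genes held the tuft gene Dclk1, and 894 of its cells came from barcode set 4.

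A level below is the part of the summed values of all genes that a gene took in the cells of a group, in ppm. Levels come from transcript ends and not from whole transcripts, so they were not divided by gene length. A difference is the median over barcode sets of the difference in log2(ppm + 1) between groups, with its range over sets, and it understates changes of low genes. A gene was called higher or lower where this median was at least 1 in size, the mean of both levels was at least 10 ppm and every set had the same direction.

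The family was dominated by the carriers of the ATP cycle. Over all cells, Slc25a5 (the adenine nucleotide carrier ANT2, which exchanges ADP for ATP) had 725 ppm and Slc25a3 (the phosphate carrier) 607 ppm, and together they made up 54.6% of the 2441 ppm summed over the members. Next came Slc25a39, a glutathione carrier, at 86.8 ppm, Slc25a24, an ATP-Mg/phosphate carrier, at 79.2 ppm, Slc25a36, a pyrimidine nucleotide carrier, at 74.3 ppm and Slc25a1, the citrate carrier, at 69.5 ppm. In their own function groups, Slc25a13 (an aspartate-glutamate carrier, 47.0 ppm), Slc25a15 (the ornithine carrier, 56.3 ppm), Slc25a20 (the carnitine-acylcarnitine carrier, 48.0 ppm), Slc25a46 (31.05 ppm) and Slc25a27 (the uncoupling-like protein UCP4, 11.1 ppm) were the most abundant. In all, 28 members reached 10 ppm over all cells and 15 did not.

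**Figure D1:**
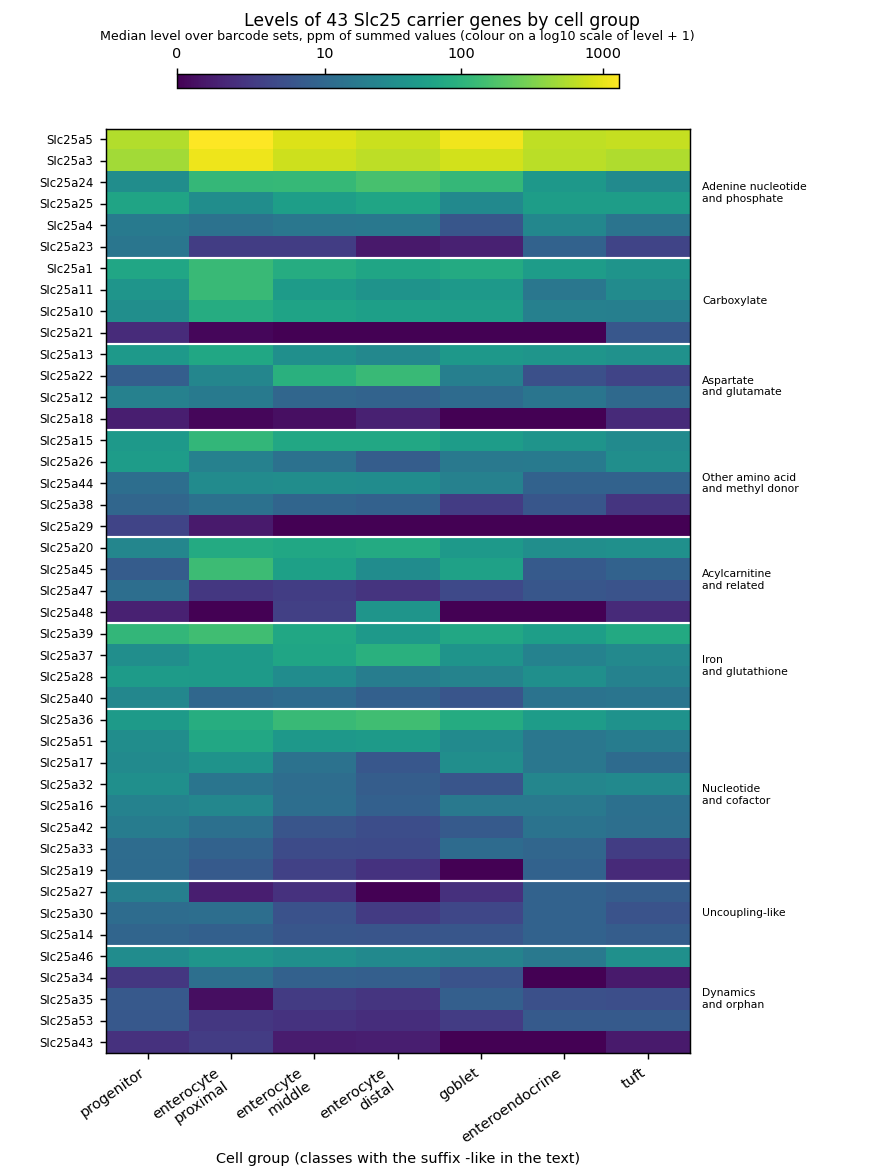
Median level over barcode sets of each of the 43 Slc25 genes (rows, grouped by what they carry) in 7 cell groups (columns), as colour on a log10 scale of ppm + 1. Enteroendocrine and tuft columns rest on barcode set 7 alone and the goblet column on 5 sets. Slc25a5 and Slc25a3 lead in all 7 groups, while Slc25a48, Slc25a22, Slc25a45 and Slc25a27 differ most plainly between columns.

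Summed over the members, the family took 3306 ppm in enterocyte-like cells (3224 to 3488 over 8 sets) and 2116 ppm in progenitor-like cells (1984 to 2244), ranges that did not overlap. Most of this gap lay in the carriers of the ATP cycle. Slc25a5 had 568.4 ppm in progenitor-like cells (513 to 646) and 1029 ppm in enterocyte-like cells (934 to 1119), a difference of 0.82 (0.65 to 1.12). Slc25a3 went from 479 ppm (436 to 513) to 837 ppm (802 to 926), also 0.82 (0.71 to 1.07). Both were higher in 8 of 8 sets and under the size of 1 that a call needs. Relative to the median of all genes (−0.45), each differed by 1.27, past that size. Their relative Slc25a4 (ANT1, the form of heart and muscle) had 18.2 ppm in progenitor-like and 15.5 ppm in enterocyte-like cells, with ranges that overlapped. Slc25a5 thus made up 96.8% of both adenine nucleotide carriers in progenitor-like cells (96.5 to 98.3 over sets) and 98.6% in enterocyte-like cells (98.0 to 98.8).

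Between enterocyte-like and progenitor-like cells, the question was which carriers mark the villus and which the crypt. Of 43 members, 29 reached 10 ppm. Of these, 11 were called, where 46.5% of all genes at that level were. In enterocyte-like cells 6 were higher, against 14.3% of all genes, and 5 lower, against 32.2%. The median difference was 0.15 over these 29 members and −0.45 over all genes at that level. Relative to that shift of all genes, 13 members were higher and 2 lower, and the share of higher calls among all genes called went from 30.8% to 51.4%.

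The 6 members higher on the villus came from 5 function groups. Of members at 10 ppm or more, the acylcarnitine group had 2 of 2 higher, and the aspartate and glutamate group 1 of 3. The acylcarnitine group has 4 members, and Slc25a47 and Slc25a48 were under that level. In set 7, Slc25a47 had 10.7 ppm in progenitor-like and 1.09 ppm in enterocyte-like cells, and Slc25a48 had 1.13 and 17.5 ppm. Slc25a45, a relative of the carnitine carrier, had 4.19 to 18.03 ppm in progenitor-like cells (median 6.95) and 70.7 to 115 ppm in enterocyte-like cells (median 81.9), a difference of 3.37 (2.22 to 4.16 over sets). The ranges lay far apart, and the highest progenitor value was that of set 4. The gene lies on GRCm38 at chr19:5877808-5885878 on the plus strand. Slc25a20, which carries acylcarnitines into the matrix in exchange for carnitine, had 22.7 to 40.1 ppm (median 25.9) in progenitor-like and 70.2 to 104 ppm (median 77.2) in enterocyte-like cells, a difference of 1.49. It was higher in every set. Of 6 carnitine shuttle and acyl-CoA dehydrogenase genes around it, 4 were higher in enterocyte-like cells (Cpt2, Crat, Acadl and Acadvl) and none lower. Of all genes, 14.3% were higher. Crat, which transfers acetyl groups to carnitine, had 57.7 against 11.9 ppm.

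Slc25a22, the mitochondrial glutamate carrier, was almost as steep. It had 6.01 to 9.34 ppm in progenitor-like cells (median 7.49) and 35.2 to 96.2 ppm in enterocyte-like cells (median 77.8), a difference of 3.15 (2.18 to 3.78). The lowest enterocyte value, from set 2, was still above every progenitor value. Its paralog Slc25a18 stayed at a median of 0.82 ppm in progenitor-like and 0.34 ppm in enterocyte-like cells, too low for a call. Slc25a44, a carrier of branched-chain amino acids, had 10.02 to 17.0 ppm (median 12.4) in progenitor-like and 22.6 to 44.1 ppm (median 30.9) in enterocyte-like cells, a difference of 1.24. The cytosolic and mitochondrial malate dehydrogenases Mdh1 and Mdh2 and the cytosolic aminotransferase Got1 were higher, and the mitochondrial Got2 was lower (36.7 against 83.5 ppm).

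The aspartate-glutamate carriers of the same malate-aspartate shuttle were not called. Slc25a13 (citrin) had 47.6 ppm in enterocyte-like and 47.9 ppm in progenitor-like cells, a difference of 0.02 (−0.30 to 0.25). Slc25a12 (aralar) had 12.6 and 22.4 ppm, a difference of −0.84 (−1.34 to 0.01). So within this pair the level of Slc25a12 was lower in enterocyte-like cells in 7 of 8 sets, while Slc25a13 had no common direction. Slc25a11, the oxoglutarate-malate carrier of this shuttle, was not called either. Relative to the median of all genes, however, it was higher by 1.44 (1.13 to 1.87), past the size of a call. On that scale Slc25a13 differed by 0.47 and Slc25a12 by −0.39.

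Slc25a24 and Slc25a36 were the other members higher on the villus. Slc25a24, which adjusts the adenine nucleotide content of the matrix in response to calcium, had 25.5 to 44.1 ppm (median 33.0) in progenitor-like and 101 to 157 ppm (median 129) in enterocyte-like cells, a difference of 1.94 (1.58 to 2.38). Its paralog Slc25a25 was lower on the villus in 7 of 8 sets and was not called, with 65.0 ppm in progenitor-like and 46.4 ppm in enterocyte-like cells (−0.44, range −0.53 to 0.03). Relative to the median of all genes, Slc25a25 differed by 0.006. Slc25a36 had 41.7 to 71.1 ppm (median 48.2) in progenitor-like and 78.4 to 132 ppm (median 117) in enterocyte-like cells, a difference of 1.12 (0.72 to 1.58). Its paralog Slc25a33 had 11.6 and 6.13 ppm, below the level for a call. The order of the pair of Slc25a24 and Slc25a25 changed between the classes: Slc25a25 made up 65.0% of both in progenitor-like cells (60.0 to 74.2 over sets) and 26.6% in enterocyte-like cells (21.8 to 34.9). Slc25a36 was the more abundant of its pair in both classes, with 79.7% and 95.3%.

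**Figure D2:**
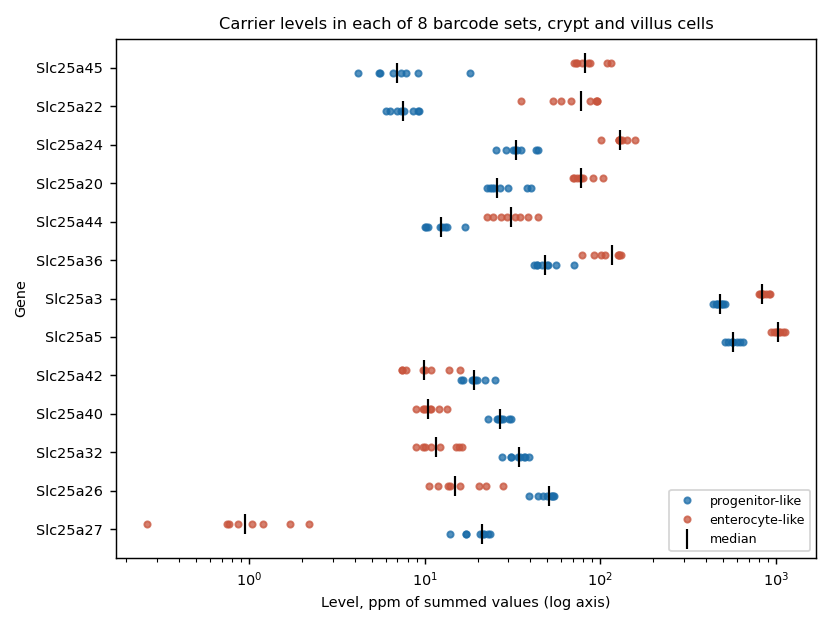
Level in ppm (log axis) of 11 called members and of Slc25a3 and Slc25a5 in each of 8 barcode sets, for progenitor-like (blue) and enterocyte-like (red) cells; black ticks are medians. The ranges of both classes over 8 sets do not overlap for Slc25a45, Slc25a22, Slc25a24 and Slc25a27. The same holds for Slc25a20, Slc25a26, Slc25a36, Slc25a44, Slc25a3 and Slc25a5. The share of all genes that part in this way was not counted.

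The 5 members lower on the villus came from 4 function groups. Among them were 2 of the 6 nucleotide and cofactor carriers at 10 ppm or more, and 1 of that group was higher. Slc25a27, the steepest, had 14.03 to 23.4 ppm in progenitor-like cells (median 21.1) and 0.26 to 2.19 ppm in enterocyte-like cells (median 0.95), a difference of −3.33 (−4.17 to −2.75). Its highest enterocyte value was below its lowest progenitor value by a wide margin. Slc25a26, which brings S-adenosylmethionine into the matrix, had 39.2 to 54.7 ppm (median 51.3) and 10.5 to 28.1 ppm (median 14.9), a difference of −1.53. It lies at chr6:94500331-94604672 and overlaps the stem cell gene Lrig1 on the other strand, and the sources used here do not say whether counting used strand. Slc25a32, the folate carrier, had 34.5 and 11.6 ppm (−1.33), Slc25a40, a glutathione carrier, 27.0 and 10.5 ppm (−1.26), and Slc25a42, which carries coenzyme A, 19.2 and 9.93 ppm (−1.06). Relative to the median of all genes, Slc25a27 (−2.89) and Slc25a26 (−1.08) stayed lower. Slc25a32 (−0.88), Slc25a40 (−0.81) and Slc25a42 (−0.61) were not called on that scale. All 7 one-carbon genes listed with the folate carrier were lower as well, where 32.2% of all genes were. Among them were Shmt2 (3.39 against 28.9 ppm) and Tyms (9.16 against 94.7 ppm).

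Of 11 genes of the machinery that inserts carriers into the membrane, none was higher on the villus and 5 were lower. Of all genes, 14.3% were higher and 32.2% lower. Among the 5 were the small chaperones Timm9 (35.6 against 96.9 ppm) and Timm8a1 (32.8 against 104 ppm). Of the related carriers outside the Slc25a symbols, 5 reached 10 ppm and none was called. Ucp2, the uncoupling protein of this tissue, had 316 and 202 ppm. Of the outer membrane pores, Vdac2 was higher at 402 against 202 ppm, and Vdac1 and Vdac3 were not called.

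Median detected genes were 2919 in progenitor-like against 2090.5 in enterocyte-like cells. Mitochondrially encoded transcripts took 7.56% and 8.58% of summed values. Some markers of other cell types were higher in enterocyte-like cells and none of these lists had a lower one: 3 of 9 goblet (summed level 1940 against 962 ppm), 2 of 10 Paneth (4304 against 1688 ppm) and 4 of 14 enteroendocrine markers (649 against 288 ppm). Their part in the carrier differences was not tested. With cells matched within each set on detected genes, 10 members were higher and 2 lower. The 10 included members that were not among the 6 called higher without matching. The median of all genes was −0.27 after matching and −0.45 without it. The share of all genes called after matching is not reported, here or for the later comparisons. Slc25a45 (3.75), Slc25a22 (1.97), Slc25a24 (1.91), Slc25a20 (1.87), Slc25a26 (−1.11) and Slc25a27 (−3.30) remained called, and Slc25a36 (0.98), Slc25a32 (−0.96), Slc25a40 (−0.80) and Slc25a42 (−0.43) fell below the size of 1. The enterocyte-like cluster led by G0s2 had no enterocyte marker among its 10 leading genes and held Ltc4s of the tuft list. Without it the same 6 members were higher and the same 5 lower.

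Position along the intestine was estimated from a score of 8 distal scoring genes (Amn, Cubn, Muc3, Clec2h, Plb1, Tmigd1, Prss30 and Naaladl1) minus 8 proximal ones (Gda, Gsta1, Cyp2b10, Cyp2c66, Cyp2d26, Adh6a, Hsd17b6 and Ms4a10), none of them a carrier. Enterocyte-like cells were divided within each set into 3 equal parts, called proximal, middle and distal. A part is a range of the score and not a measured position, and 957 of 6962 cells (13.8%) were closer than 0.1 SD to a boundary. The question was which carriers follow the axis. Of 28 members at 10 ppm or more, 10 were called, where 28.5% of all genes were. In the distal part 2 were higher, against 10.5% of all genes, and 8 lower, against 18%. The median was −0.65 over these members and −0.17 over all genes. Relative to the latter, 3 were higher (Slc25a25 in addition) and 6 lower (without Slc25a12 at −0.93 and Slc25a28 at −0.95), and the share of higher calls among all genes called went from 36.9% to 50.7%. Without scaling to the cell total, 2 were higher and 18 lower, with 12.9% of all calls higher.

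Slc25a48 and Slc25a22 were the members higher in the distal part. Slc25a48, a choline carrier of the inner membrane, was listed at 0 in 5 of 8 sets in the proximal part and had at most 0.87 ppm there. It had 0 to 14.3 ppm in the middle part (median 2.94) and 14.3 to 57.9 ppm in the distal part (median 41.6). No fold is given against a part listed at 0. Every set had its highest value in the distal part. Slc25a22 had 15.2 to 33.4 ppm in the proximal part (median 25.7), 21.9 to 148 ppm in the middle part (median 94.7) and 79.4 to 158 ppm in the distal part (median 127), a difference of 2.24 between the ends (2.13 to 2.98). The ends did not overlap, and the middle part spread widely between sets.

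The 8 members lower in the distal part came from 5 function groups. Slc25a17, which brings coenzyme A and other cofactors into peroxisomes, had 30.6 to 46.3 ppm in the proximal part (median 39.3) and 0 to 16.9 ppm in the distal part (median 6.08), a difference of −2.51. Slc25a45 had 129 to 158 ppm (median 137) and 11.01 to 61.2 ppm (median 32.1), a difference of −2.09 (−3.52 to −1.23). Neither gene had overlapping ends. Slc25a11, the oxoglutarate-malate carrier, had 125 to 154 ppm (median 128) and 30.4 to 48.1 ppm (median 38.3), a difference of −1.79 (−2.20 to −1.43).

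Slc25a39 had 132 to 175 ppm (median 143) in the proximal and 30.5 to 59.9 ppm (median 46.7) in the distal part, a difference of −1.61. Slc25a16, a carrier linked to coenzyme A, had 26.6 and 7.98 ppm (−1.58), Slc25a13 70.5 and 27.2 ppm (−1.36), Slc25a12 18.1 and 8.70 ppm (−1.10), and Slc25a28 48.4 and 19.7 ppm (−1.12). Slc25a28 and Slc25a37, the mitoferrins that bring iron to the matrix, parted: Slc25a37 had 49.4 ppm in the proximal and 94.2 ppm in the distal part, a difference of 0.93 (−0.21 to 1.55) that was not called. Slc25a5 (1303 and 738 ppm, −0.84) and Slc25a3 (1097 and 629 ppm, −0.81) were lower in the distal part in 8 of 8 sets without reaching the size of a call. The sum of all members was 4049 ppm in the proximal part (3938 to 4253) and 2673 ppm in the distal part (2393 to 2967).

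**Figure D3:**
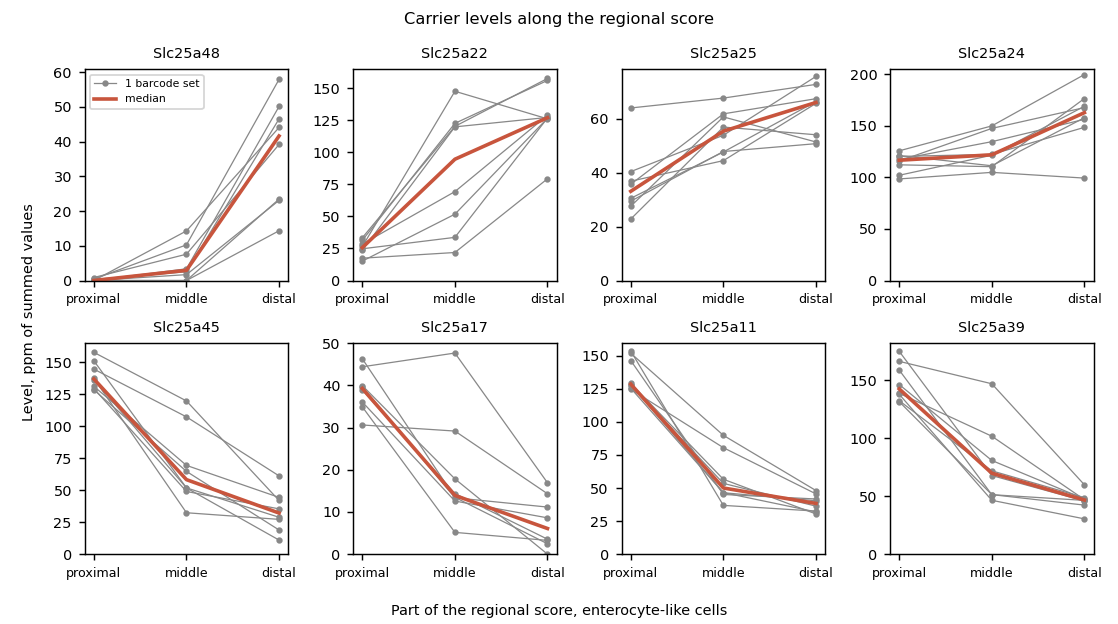
Level in ppm of 8 members in the proximal, middle and distal parts of enterocyte-like cells; each grey line is 1 barcode set and the red line is the median. Slc25a48 climbs from 0 to 41.6 ppm and Slc25a22 from 25.7 to 127 ppm, Slc25a45, Slc25a17, Slc25a11 and Slc25a39 descend, and Slc25a24 and Slc25a25 were not called.

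The promoters of 4 regional members are printed to show what stands before each start, since Slc25a48 and Slc25a22 were higher and Slc25a45 and Slc25a17 lower in the distal part. RefSeq promoter sequences on GRCm38.p6 were found for 34 of the 43 members, and the 250 bases before the start were read. Capitals mark matches on either strand to a GC box, a CCAAT box or a nuclear receptor site. The windows are chr13:56438105-56438354 on the plus strand for Slc25a48, chr7:141437875-141438124 on the minus strand for Slc25a22 (the first of 3 starts in the table), chr19:5877572-5877821 on the plus strand for Slc25a45 and chr15:81360766-81361015 on the minus strand for Slc25a17.
Slc25a48: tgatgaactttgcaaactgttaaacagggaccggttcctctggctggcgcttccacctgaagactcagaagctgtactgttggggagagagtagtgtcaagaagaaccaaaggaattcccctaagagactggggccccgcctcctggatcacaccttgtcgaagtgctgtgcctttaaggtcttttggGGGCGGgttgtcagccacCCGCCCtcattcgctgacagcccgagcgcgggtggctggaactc
Slc25a22: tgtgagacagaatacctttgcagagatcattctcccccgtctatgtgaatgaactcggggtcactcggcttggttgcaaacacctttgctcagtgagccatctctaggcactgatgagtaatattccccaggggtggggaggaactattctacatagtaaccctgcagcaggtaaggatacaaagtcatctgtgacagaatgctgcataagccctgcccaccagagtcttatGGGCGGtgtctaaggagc
Slc25a45: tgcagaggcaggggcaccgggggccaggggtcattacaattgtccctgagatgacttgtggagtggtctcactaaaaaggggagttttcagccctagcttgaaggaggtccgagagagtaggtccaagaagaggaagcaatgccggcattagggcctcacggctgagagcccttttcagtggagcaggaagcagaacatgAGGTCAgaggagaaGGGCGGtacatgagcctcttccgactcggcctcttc
Slc25a17: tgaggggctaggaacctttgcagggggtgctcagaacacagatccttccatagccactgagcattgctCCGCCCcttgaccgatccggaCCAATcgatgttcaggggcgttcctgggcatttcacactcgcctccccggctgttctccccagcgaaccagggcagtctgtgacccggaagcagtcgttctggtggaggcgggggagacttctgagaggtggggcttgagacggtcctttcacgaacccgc
Each window held at least 1 GC box (GGGCGG), which 23 of the 34 member promoters and 32.7% of all 32851 promoters of that length held. A CCAAT box stood in the Slc25a17 window, in 16 member promoters and in 33.8% of all. The nuclear receptor site, spelled AGGTCA, stood in the Slc25a45 window, in 4 member promoters and in 14.02% of all. Also searched were AGATAA as read by GATA factors (2 members, 9.99% of all), CATAAA as read by CDX factors (4 members, 10.8%), the box TATAAA (1 member, 12.4%), the E-box CACGTG (5 members, 6.02%), the NRF1 motif (no member, 0.78%) and CAAAGTCC (part of the HNF4 motif; no member, 1.196%), and none of these was in the 4 windows. A match describes letters and not a bound site. The windows of Slc25a48 and Slc25a22 shared no motif of this search that the other 2 windows lacked.

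Around the carriers, the related lists held lower genes in the distal part to different extents. Of all genes at 10 ppm or more, 18% were lower and 10.5% higher. All 6 carnitine shuttle genes were lower (Cpt1a, the entry enzyme, at 49.3 against 128 ppm), as were 8 of 9 import genes at 10 ppm. Of the 5 related carriers at 10 ppm, 4 were lower: Ucp2 (143 against 508 ppm), Mtch2 (172 against 469 ppm) and both pyruvate carrier subunits, Mpc1 (65.6 against 172 ppm) and Mpc2 (101 against 326 ppm). Arg2, which makes ornithine in the matrix, was lower at 98.6 against 658 ppm, while Slc25a15, the ornithine carrier, had 72.1 and 114 ppm and was not called (−0.69). Of 9 heme and iron-sulfur genes at 10 ppm, 5 were lower and none higher. In the other lists at that level, 2 of 4 malate-aspartate shuttle, 3 of 6 ornithine and 1 of 2 one-carbon genes were lower. So were 1 of 4 citrate and lipid synthesis genes and 1 of 3 outer membrane pores. Of 4 glutamate genes, 1 was higher and 1 lower.

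The distal part also differed in what else its cells held. Median detected genes were 2781 in the proximal and 1687 in the distal part. With cells matched on detected genes, 3 members were higher, among them Slc25a48 and Slc25a22 (1.84), and 3 of the 8 were lower (Slc25a45 at −1.635, Slc25a17 at −1.502 and Slc25a39 at −1.16). Slc25a11 (−0.97), Slc25a12 (−0.89), Slc25a16 (−0.63), Slc25a13 (−0.63) and Slc25a28 (−0.37) then fell below the size of 1. The call of Slc25a28 was lost in 10 of 21 alternatives, among them without set 3, 5, 6 or 7 (−0.99 each), and that of Slc25a13 without the cluster led by G0s2 (−0.89). Of 9 goblet markers, 7 were higher in the distal part, with a summed level of 3603 ppm (2010 to 12040) against 891 ppm (441 to 4021). Of 10 Paneth markers, 8 were higher (6420 ppm, 3188 to 11947, against 1407 ppm, 925.3 to 2747), and of 14 enteroendocrine markers 8 were (1033 against 323 ppm). Of the crypt lists, 4 of 10 stem (869 against 161 ppm) and 4 of 11 transit-amplifying markers (443 against 203 ppm) were higher too. Mitochondrially encoded transcripts took 9.38% (8.84 to 11.2) of summed values in the proximal and 7.42% (5.76 to 8.77) in the distal part. None of the goblet or Paneth markers was at 0 in both parts. The part these values take in the carrier differences was not tested.

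In progenitor-like cells, the same score gave no called member among 31 at 10 ppm or more, where 0.513% of all genes were called (0.167% higher and 0.345% lower). The largest median differences in each direction were those of Slc25a24, with 27.1 ppm in the proximal and 44.5 ppm in the distal part (0.67, range 0.23 to 0.77), and of Slc25a4, with 19.9 and 12.96 ppm (−0.42, range −1.14 to 0.49). Slc25a22 had 8.06 and 8.19 ppm and Slc25a11 43.4 and 40.7 ppm. Slc25a45 had 11.4 and 4.21 ppm, too low for a call. The score separates crypt cells poorly: 48.6% of progenitor-like cells were closer than 0.1 SD to a boundary, and detected genes were alike in both ends (2907 and 2914). Whether the regional difference itself differed between enterocyte-like and progenitor-like cells was not tested.

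**Figure D4:**
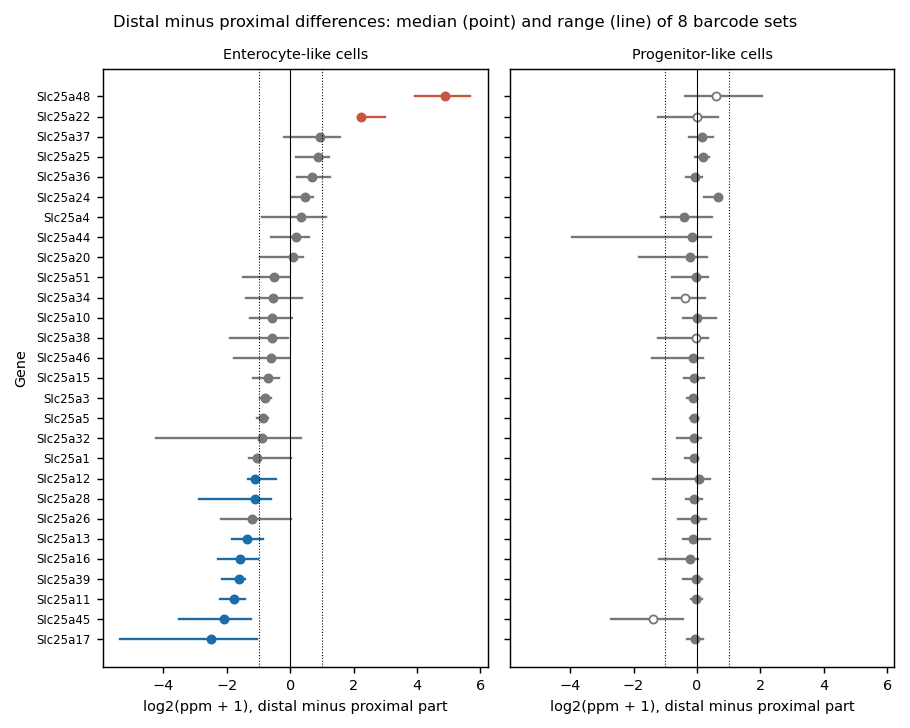
Difference in log2(ppm + 1) between the distal and proximal parts of enterocyte-like cells (left) and progenitor-like cells (right) for 28 members; points are medians and lines the range of 8 barcode sets. Red and blue mark members called higher and lower, grey those not called, open points those under 10 ppm in that class, and dotted lines a size of 1. In progenitor-like cells no point is coloured.

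Single clusters showed which villus cells carried these levels. Slc25a22 was highest in the enterocyte-like cluster led by Ly6m, Nt5e and Slc28a2, of which the last 2 are tip scoring genes, at 203 ppm (142 to 235 over 8 sets). It had 107 ppm in the cluster led by Slc6a14, which also held the bile acid carrier Slc10a2 of the ileum, 68.5 ppm in that led by Enpp7, and 12.5 ppm in that led by S100g, a calcium-binding protein of the duodenum. Slc25a48 reached 97.4 ppm (67.4 to 138 over 7 sets) in the Slc6a14 cluster and at most a median of 15.4 ppm in the other villus clusters. Slc25a45 (143 ppm) and Slc25a11 (161 ppm) were highest in the cluster led by G0s2, and Slc25a17 (45.5 ppm) in that led by S100g. Several of these clusters have regional scoring genes among their leading genes, so they do not check the parts independently.

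Slc25a24 was highest in an unnamed cluster of 1749 cells led by Fabp6 and Car1, at 224 ppm (164 to 307), close to its 212 ppm in the Slc6a14 cluster. The same unnamed cluster had the highest median of Slc25a20 (95.2 ppm), and 32.7 ppm of Slc25a4 (15.2 to 53.9), where the tip cluster had 2.45 ppm. Its ranges for Slc25a20 overlapped those of the G0s2 and Enpp7 clusters. On the crypt side, Slc25a27 had 31.9 ppm (21.4 to 42.2) in the stem-like cluster that held Gkn3 among its leading genes, 19.01 ppm in that led by histone genes of S phase, and 8.54 ppm (0 to 11.6) in that with Ccnb1 and Cdc20 of mitosis. Slc25a4 was also highest of the crypt clusters in the stem-like one, at 37.3 ppm (17.1 to 52.3).

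**Figure D5:**
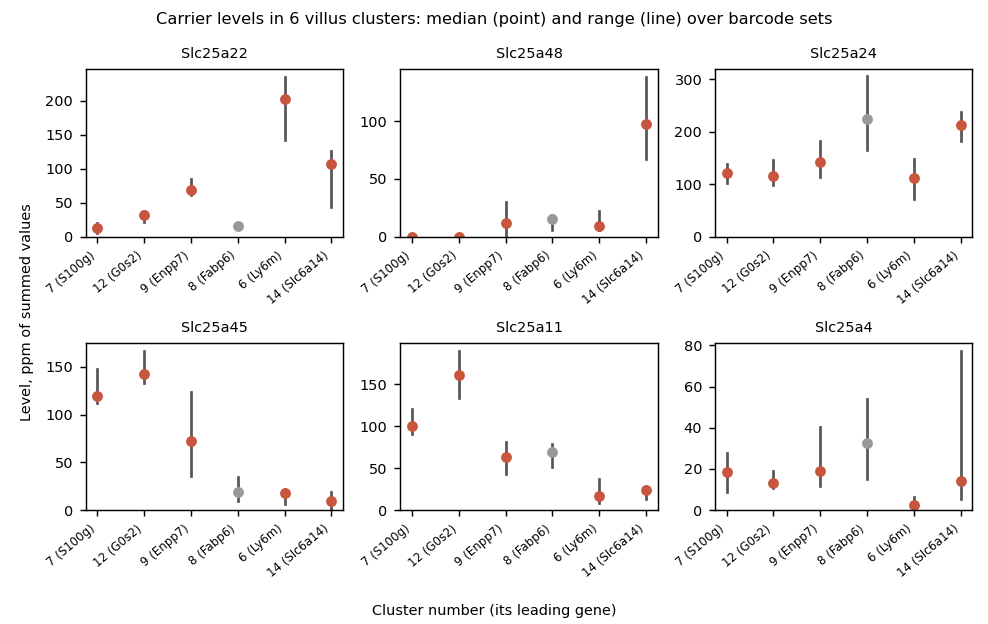
Level in ppm of 6 members in 6 villus clusters, each named by its number and leading gene; points are medians over barcode sets and lines their range. Red points are enterocyte-like clusters and the grey point is an unnamed cluster. Slc25a22 peaks in the cluster led by Ly6m (203 ppm), Slc25a48 in that led by Slc6a14 (97.4 ppm), and Slc25a45 and Slc25a11 in that led by G0s2.

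A villus tip score (Nt5e, Ada, Slc28a2, Klf4 and Egfr) divided enterocyte-like cells at its median within each set and regional part. Of 28 members, 2 were called, where 2.21% of all genes were. At high score 1 was higher, against 1.98% of all genes, and 1 lower, against 0.226%. Slc25a22 had 18.5 to 51.4 ppm at low score (median 45.9) and 52.0 to 153 ppm at high score (median 115), a difference of 1.44 (0.79 to 1.67). It was higher in 8 of 8 sets, and the ranges of both parts only just parted. Matched on detected genes, whose medians were 2316 and 1819, the difference was 1.05. Slc25a4 had 15.7 to 30.7 ppm (median 20.2) at low and 4.86 to 11.6 ppm (median 7.89) at high score, a difference of −1.15 (−2.22 to −0.73), which was −0.98 relative to the median of all genes and −0.78 after matching. Slc25a25 had 41.3 and 56.5 ppm (0.72, range 0.15 to 0.81) and Slc25a37 83.4 and 49.8 ppm (−0.80, range −1.29 to −0.40), and neither was called. Of the cells, 20.6% were closer than 0.1 SD to the boundary.

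A cycling score of 12 genes gave no called member between the highest and lowest of 3 equal parts of progenitor-like cells among 31 at 10 ppm or more, where 5.57% of all genes were called (4.13% higher and 1.45% lower). The closest was Slc25a10, the dicarboxylate carrier, with 43.4 ppm at high and 21.4 ppm at low score, a difference of 0.93 (0.67 to 1.202) and higher in 8 of 8 sets. Slc25a1 had 81.5 and 54.4 ppm (0.53, range 0.23 to 1.04). Slc25a36 had 34.0 and 62.5 ppm (−0.81, range −1.52 to −0.58) and Slc25a27 17.05 and 25.8 ppm (−0.74, range −1.05 to −0.28). So the highest and lowest members moved by less than the size of a call, each in 1 direction in all sets.

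In the secretory lineages, goblet-like cells could be compared in 5 sets, of which sets 1, 3, 7 and 8 held 27 to 64 of them. Against progenitor-like cells, 7 of 29 members were called, where 37.9% of all genes were. In goblet-like cells 2 were higher, against 8.58% of all genes, and 5 lower, against 29.3%. Relative to the median of all genes (−0.58), 6 were higher and 4 lower, and the share of higher calls among all genes called went from 22.6% to 54.2%. Slc25a45 had 39.2 to 96.9 ppm (median 60.1) against 7.88 ppm, a difference of 3.21. Slc25a24 had 91.6 to 126 ppm (median 118) against 35.5 ppm, a difference of 1.58. The lower members were Slc25a32, Slc25a27, Slc25a40, Slc25a26 and Slc25a42. In set 4, with 894 goblet-like cells, they had 11.2, 1.67, 11.7, 18.1 and 7.40 ppm, against 37.1, 14.03, 31.06, 54.1 and 16.03 ppm in the 167 progenitor-like cells of that set. These are the members that were also lower in enterocyte-like cells, and both comparisons share the progenitor-like reference. With cells matched on detected genes, 1 member was higher and 2 were lower (Slc25a32 and Slc25a26), and Slc25a24 (0.98) and Slc25a45 (2.47) were not called. The 1 higher member was then another one.

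Against enterocyte-like cells, goblet-like cells had 1 called member of 23, Slc25a22, where 7.17% of all genes were called. It was lower, as 5.1% of all genes were, and no member was higher, as 2.07% were. Relative to the median of all genes (−0.17) the counts were the same, and the share of higher calls among all genes went from 28.8% to 50.4%. Slc25a22 had 20.9 ppm (5.70 to 73.1) in goblet-like and 87.3 ppm in enterocyte-like cells of the same sets, a difference of −2.02 (−3.37 to −0.39). In set 1, with 27 goblet-like cells, its 73.1 ppm stood close to the 96.2 ppm of enterocyte-like cells. Without set 1 there were 3 lower members and without set 3 or 8 there were 2, and without set 4 or 7 there was 1 higher member. No member was called in 1 direction against both references, which 0.721% of genes were for higher and 0.498% for lower levels. Slc25a5 had 1122 ppm (760 to 1241) and Slc25a3 797 ppm (671 to 958) in goblet-like cells, near the enterocyte-like levels.

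Tuft-like and enteroendocrine-like cells had 20 or more cells in barcode set 7 alone, so nothing was called. In that set both classes held crypt markers. Summed stem markers took 3865 ppm in tuft-like and 3534 ppm in enteroendocrine-like cells. Their median over sets was 4786 ppm in progenitor-like and 497 ppm in enterocyte-like cells. Tuft-like cells held 940 ppm of tuft, 6119 ppm of goblet and 8004 ppm of Paneth markers. Enteroendocrine-like cells held 17241 ppm of enteroendocrine markers. The part these values take in the carrier levels was not tested. In set 7 Slc25a22 had 3.33 ppm in 300 tuft-like and 4.77 ppm in 220 enteroendocrine-like cells, against 59.5 ppm in enterocyte-like cells. It was listed at 0 in the 24 tuft-like and 48 enteroendocrine-like cells of the other sets. Slc25a45 had 8.64 and 6.68 ppm against 73.2 ppm, and Slc25a24 29.9 and 44.8 ppm against 128 ppm. Among members with a mean level of at least 10 ppm, differences past 1 in size from enterocyte-like cells, both in set 7 and in the other sets pooled, were found for Slc25a20, Slc25a22, Slc25a24, Slc25a37 and Slc25a45 in both classes, for Slc25a15 and Slc25a44 in enteroendocrine-like cells and for Slc25a1, Slc25a10, Slc25a11 and Slc25a36 in tuft-like cells. In all of these the secretory class was lower. The share of all genes that passed this rule was not counted, here or against progenitor-like cells, so the list is not particular to carriers. Below that level in set 7, some members were past 1 in the other direction in both. In enteroendocrine-like cells these were Slc25a27 (8.58 against 2.19 ppm in set 7) and Slc25a23 (8.58 against 3.28 ppm), and in tuft-like cells Slc25a47 (5.32 against 1.09 ppm) and Slc25a53 (6.65 against 1.64 ppm). They were named after their values were seen. Against progenitor-like cells the only such member at 10 ppm was Slc25a28 in tuft-like cells (23.3 against 52.4 ppm in set 7, and 15.7 against 51.3 ppm in the others). Summed over the members, tuft-like cells had 1974 ppm and enteroendocrine-like cells 2023 ppm, under the lowest set of enterocyte-like cells.

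The sources used here do not say how reads were shared between near-identical carriers or their pseudogenes, so levels of Slc25a5, Slc25a4 and Slc25a3 are uncertain to that extent. In the GENCODE M21 annotation of GRCm38, 22 of 43 members overlapped another gene, 16 of them on the opposite strand. Among the called members these were Slc25a11 (with Rnf167), Slc25a12, Slc25a16, Slc25a26 (with Lrig1), Slc25a36 and Slc25a39. The other called members, Slc25a22, Slc25a45 and Slc25a48 among them, overlapped none.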

How the data were processed

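Single cells of the diet samples were read from 1 deposited matrix of 20090 genes and 27881 cells. Cell Ranger and the mm10 build are named in the submitters' processing notes. The deposited values are treated as a score: they are whole numbers, but the value 2 was more frequent than 1 in 25.3% of cells, and the sources used here do not state the scaling. A count model was therefore not run, and the design's test became a description over 8 barcode sets. No other column of per-sample values was left unused (0).

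Cells under 500 detected genes or above 25% mitochondrial values were removed (2 cells). Scrublet marked 54 doublets (0.194%), below the 0.5% at which the caller can be said to have worked, and these were removed. With scanpy 1.11.5, 2000 variable genes were chosen without the 3 Slc25 genes among them, scaled, reduced to 30 components and clustered (15 neighbours, Leiden resolution 1). Of 4 clustering set-ups tried, the last was kept, and the rule for naming clusters was changed several times after clusters were seen. These choices were judged on marker genes and not on carrier levels. A name needed 3 or more higher markers from its list, and a lead of 0.5 on the log2 scale over any rival list. The 6 of 19 clusters without a name were led by A930009A15Rik, Hbb-bs, Slc7a15, Fabp6, Aspn and Tff1.

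Members and gene lists were chosen with earlier results of these data known. Levels were summed per barcode set (at least 20 cells per group and set, pseudocount of 1 ppm). On simulated data with 200 changed genes among 20090, the villus against crypt comparison recovered 100% of changes of 1.5 and of 3 on the log2 scale. The goblet against crypt comparison recovered 94% and 100%. The simulation drew Poisson counts, which the deposited values are not. It changed only genes at 20 ppm or more, by the same size in every set. The shares therefore do not cover members below that level or differences that vary between sets. Named with values are all called members, the most abundant of each function group, both members of paralog pairs and those next to the limit of 50 cells. Slc25a10 and the genes of the related lists named as examples were chosen after their values were seen. Some results are not reported here.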

Additional observations from a re-analysis of the deposited data

Results flagged for a closer look

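Of 40 groups of 8 barcode sets checked for a set that stands apart, 4 had one. Chance gives about 1 in 20. In progenitor-like cells, barcode set 4, which held 167 of them, had 10.02 ppm of Slc25a4 where the next lowest set had 16.4 ppm and the median was 18.2 ppm. The same set had 18.03 ppm of Slc25a45, with the next highest set at 9.17 ppm and the median at 6.95 ppm. In enterocyte-like cells, Slc25a11 reached 104 ppm in set 5, above 88.6 ppm in the next set and a median of 79.0 ppm. Slc25a17 reached 38.3 ppm in enterocyte-like cells of set 2, above 26.0 ppm in the next set and a median of 22.3 ppm.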

How the results depend on the processing

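Over the alternatives run, 227 of 266 counts of members stayed within 1.5 times the reported count, and 545 of 601 differences of called members kept their call. The other 56 differences kept their direction but not the call, and none of the differences reversed. A count has no direction that could reverse. In the villus against crypt comparison, the members higher numbered 13 after centring on the median of all genes, 10 at clustering resolution 2 and 10 after matching on detected genes. The members lower numbered 2 with a pseudocount of 10 ppm, after centring and after matching, and 11 without a filter on low levels. In goblet-like against progenitor-like cells, 6 were higher after centring, 4 with the cells of all sets pooled and 1 after matching, while 10 were lower without the filter and 2 after matching. Against enterocyte-like cells, 1 was higher without the filter, and 2 were lower without it, 2 with at least 1000 detected genes, 3 without rescaling and 5 at resolution 2. In the distal villus, 4 were higher with the distal scoring genes alone, and 13 were lower without the filter, 18 without rescaling, 5 at resolution 2 and 3 after matching. In the distal crypt, 1 was higher at resolution 2 or with the distal scoring genes alone, and 1 was lower without the filter. At high tip score, 0 were lower with a pseudocount of 10 ppm, at least 1000 detected genes, centring, resolution 0.5 or 2, or matching. At high cycling score, 1 was higher without rescaling or at resolution 2, and 1 was lower at resolution 2. Leaving out each barcode set gave 0 to 1 higher and 1 to 3 lower members in goblet-like against enterocyte-like cells. The cause of these shifts was not tested. Slc25a22, Slc25a45, Slc25a48 and Slc25a39 in the regional comparison, and Slc25a20, Slc25a22, Slc25a24, Slc25a26, Slc25a27 and Slc25a45 between villus and crypt, kept their calls under all alternatives run. Differences were taken within barcode sets, so groups of cells were paired by set, except where the cells of several sets were pooled. Across the labelled samples, no paired analysis was possible because the barcode sets of the pooled matrix do not carry the labels' replicate numbers.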

Other observations

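Around the citrate carrier Slc25a1, the enzymes of citrate use parted between villus and crypt. Slc25a1 itself had 96.6 ppm in enterocyte-like and 68.8 ppm in progenitor-like cells (0.50, range 0.42 to 0.60) and was not called. Cs, which makes citrate, was higher in enterocyte-like cells at 397 against 113 ppm, as was Me1, the cytosolic malic enzyme, at 98.2 against 22.3 ppm. Acly, which cleaves exported citrate, was lower at 17.9 against 55.5 ppm, and so was the fatty acid synthase Fasn at 7.81 against 38.4 ppm. Along the intestine, Me1 was lower in the distal part at 27.04 against 180.0 ppm, and Cs, Acly and Acaca were not called.

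The genes of ornithine use had no common direction either. Slc25a15 had 91.1 ppm in enterocyte-like and 47.3 ppm in progenitor-like cells (0.93, range 0.82 to 1.298) and was not called. Relative to the median of all genes, Slc25a15 was higher by 1.38 (1.27 to 1.75), past the size of a call. Arg2 was higher in enterocyte-like cells at 342 against 70.2 ppm, and Cps1, which makes carbamoyl phosphate in the matrix, was lower at 248 against 1167 ppm. Otc and Oat were not called. The list held 6 genes at 10 ppm or more, of which 1 was higher and 1 lower.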
